A study of Mus musculus with 8 samples.

Results

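The major urinary protein (Mup) genes were followed through their probes on liver expression arrays, and every probe was taken whose deposited symbol is Mup and a number. This gave 9 of 25697 probes, for 5 of 18120 gene symbols: 1 probe each for Mup1 and Mup3, 2 each for Mup2 and Mup4, and 3 for Mup5. The study profiled liver RNA from adult males of the ob/ob strain, which make no functional leptin in any group, after 12 days of leptin delivered at 0, 12.5 or 25 ng/hr. There were 3 arrays at 0 ng/hr (controls, replicates 1 to 3), 2 at 12.5 ng/hr (replicates 4 and 5) and 3 at 25 ng/hr (replicates 6 to 8). Groups were taken from the dose field, with which titles and source names fit. The agent field runs the other way, naming the 25 ng/hr arrays untreated and the 0 ng/hr arrays leptin, so each direction below rests on the dose field. The labels name adult male mice but not whether each array came from a separate animal, and if not, the p-values cover only a technical spread. All arrays were sections of 1 BeadChip, and the doses follow its section order, so position on the chip and dose cannot be told apart.

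Major urinary proteins are small lipocalins, barrel-shaped carriers of hydrophobic molecules, that the mouse liver secretes into blood and the kidney passes into urine. There they bind volatile pheromones and release them slowly from scent marks, and some act as chemical signals themselves. Their genes lie side by side in a cluster of recent duplicates, and in the liver their RNA is among the most abundant of male mice. It depends on growth hormone, whose pulses in males act through STAT5b, and on androgens, thyroid hormone and glucocorticoids. Mup1 and Mup2 belong to the closely alike central group that makes most urinary protein, whereas Mup3, Mup4 and Mup5 lie toward the edges of the cluster and are more diverged. Mup4 was described in lacrimal and nasal tissue and Mup5 in salivary glands, besides the liver.

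The RefSeq gene table of GRCm38.p6 lists 22 protein-coding genes named Mup and a number, all on chromosome 4, and 23 genes there with a Mup pseudogene symbol. Mup4 comes first and Mup21 last in their order, with Mup6, Mup7 and Mup2 after Mup4, Mup1 further inside, and Mup5, Mup20 and Mup3 just before Mup21. A further 2 probes lay outside the symbol rule but map by name to this cluster, 1 deposited as LOC620807 (now Mup6) and 1 as OTTMUSG00000000231 (now Mup21). Probe sequences were not used here, and RNA of one Mup gene may bind the probe of another, so each value below belongs to a probe and not strictly to the gene of its symbol.

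The RefSeq promoter table (GRCm38.p6) held 3 of the 5 genes, Mup2, Mup3 and Mup4, and also Mup6 and Mup21. Mup1 and Mup5 are named only. The 250 bases before the start of 4 of these genes are shown because they let the likeness of the family be read directly. All are on chromosome 4, minus strand: Mup2 at chr4:60139857-60140106, Mup3 at chr4:62087318-62087567, Mup4 at chr4:59960668-59960917 and Mup21 at chr4:62150842-62151091. Capitals mark the run TATATAA, which resembles a core promoter element, and every copy of ATCAAT.
Mup2: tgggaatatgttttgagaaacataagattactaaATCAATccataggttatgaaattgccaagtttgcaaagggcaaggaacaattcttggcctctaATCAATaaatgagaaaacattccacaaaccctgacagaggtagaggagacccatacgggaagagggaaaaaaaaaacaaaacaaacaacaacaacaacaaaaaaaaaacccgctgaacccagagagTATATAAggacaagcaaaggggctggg
Mup3: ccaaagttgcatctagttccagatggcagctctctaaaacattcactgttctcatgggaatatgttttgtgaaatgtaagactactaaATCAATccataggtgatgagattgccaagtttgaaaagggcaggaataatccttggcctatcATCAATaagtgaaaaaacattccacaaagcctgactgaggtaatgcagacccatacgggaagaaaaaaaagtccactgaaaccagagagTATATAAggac
Mup4: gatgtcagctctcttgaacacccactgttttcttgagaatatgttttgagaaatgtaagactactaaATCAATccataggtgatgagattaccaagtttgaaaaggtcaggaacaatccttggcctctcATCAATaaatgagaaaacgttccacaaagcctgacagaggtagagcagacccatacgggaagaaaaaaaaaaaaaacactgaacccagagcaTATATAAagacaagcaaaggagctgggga
Mup21: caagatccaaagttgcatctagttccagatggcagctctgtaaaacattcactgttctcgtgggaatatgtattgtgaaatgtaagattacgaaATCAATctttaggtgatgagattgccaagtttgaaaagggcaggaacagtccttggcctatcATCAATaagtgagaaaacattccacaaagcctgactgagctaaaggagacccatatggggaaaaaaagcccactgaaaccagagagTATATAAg
In a pairwise alignment, Mup4 and Mup2 were identical at 91.2% of 215 aligned bases and Mup4 and Mup6 at 92.3% of 248. Mup3 and Mup21 shared 93.4% of 244, and Mup4 and Mup3 88.65% of 229. The lowest share among the windows printed above was 84.75% of 223, for Mup4 and Mup21. Gaps do not count in these shares. There were 35 gap bases inside the alignment of Mup4 and Mup2 and 2 inside that of Mup4 and Mup6. Every window printed above holds ATCAAT at 2 places and TATATAA at 1 place close to the start. The table holds 14 Mup promoters in all. ATCAAT, searched on both strands, was in all 14 and in 6.72% of the 32851 promoter windows of the table, and TATATAA was in 11 of 14 and in 3.04%. These 2 motifs were chosen with the sequences in view. The motif TTCNNNGAA, which STAT5 prefers, was in none of the 14 windows and in 7.02% of all.  A match is a run of letters and not a measured site.

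Between 47.1% and 49.7% of probes per array were above background (detection p under 0.05), mean intensities ran from 456 to 532, and log2 signals of arrays of 1 group correlated with r from 0.988 to 0.993. Of the 9 Mup probes, 7 were above background on at least 2 arrays and entered the tests, as did 13760 probes in all. The tissue matched its label: 8 of 10 hepatocyte markers were tested, among them Hpx and Cyp2e1 with mean log2 signals of 15.10 and 15.01 in the controls, while the probes of Alb and Tat did not pass the filter. With so few arrays, every value is of limited precision.

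At 25 ng/hr of leptin all 7 tested Mup probes averaged higher than in the controls. In limma's test 4 of the 7 passed an adjusted p of 0.05: Mup4, 1 of the Mup5 probes and both Mup2 probes. Over all probes 0.858% passed in either direction and 0.603% passed on the higher side. The 3 arrays at 25 ng/hr lay above all 3 controls for 7 of 7 tested Mup probes, and for 11.4% of all probes. The median log2 difference of the 7 was 1.07, beside 0.00 over all probes, and 7 of 7 lay above 0, as did 50.4% of all. At an unadjusted p under 0.05 there were 6 of 7, beside 17% of all. Each of the 7 was above background on all 3 controls, so none entered the test through the 25 ng/hr arrays alone. The calls did not hold up when single arrays were left out. The number of Mup probes that passed fell to 1 when control replicate 1 was left out. It was 0 when control replicate 2 or 3, replicate 4 or 5 of the 12.5 ng/hr group, or replicate 6 or 7 of the 25 ng/hr group was left out, and 5 when replicate 8 was. Over all probes the number that passed fell too, from 118 to between 0 and 39 without any 1 of the first 7 arrays, and rose to 194 without replicate 8. All 7 log2 differences stayed above 0 in each of these fits and under each scaling tried. When the filter on dim probes was dropped, 1 of the 7 passed.

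**Figure D1:**
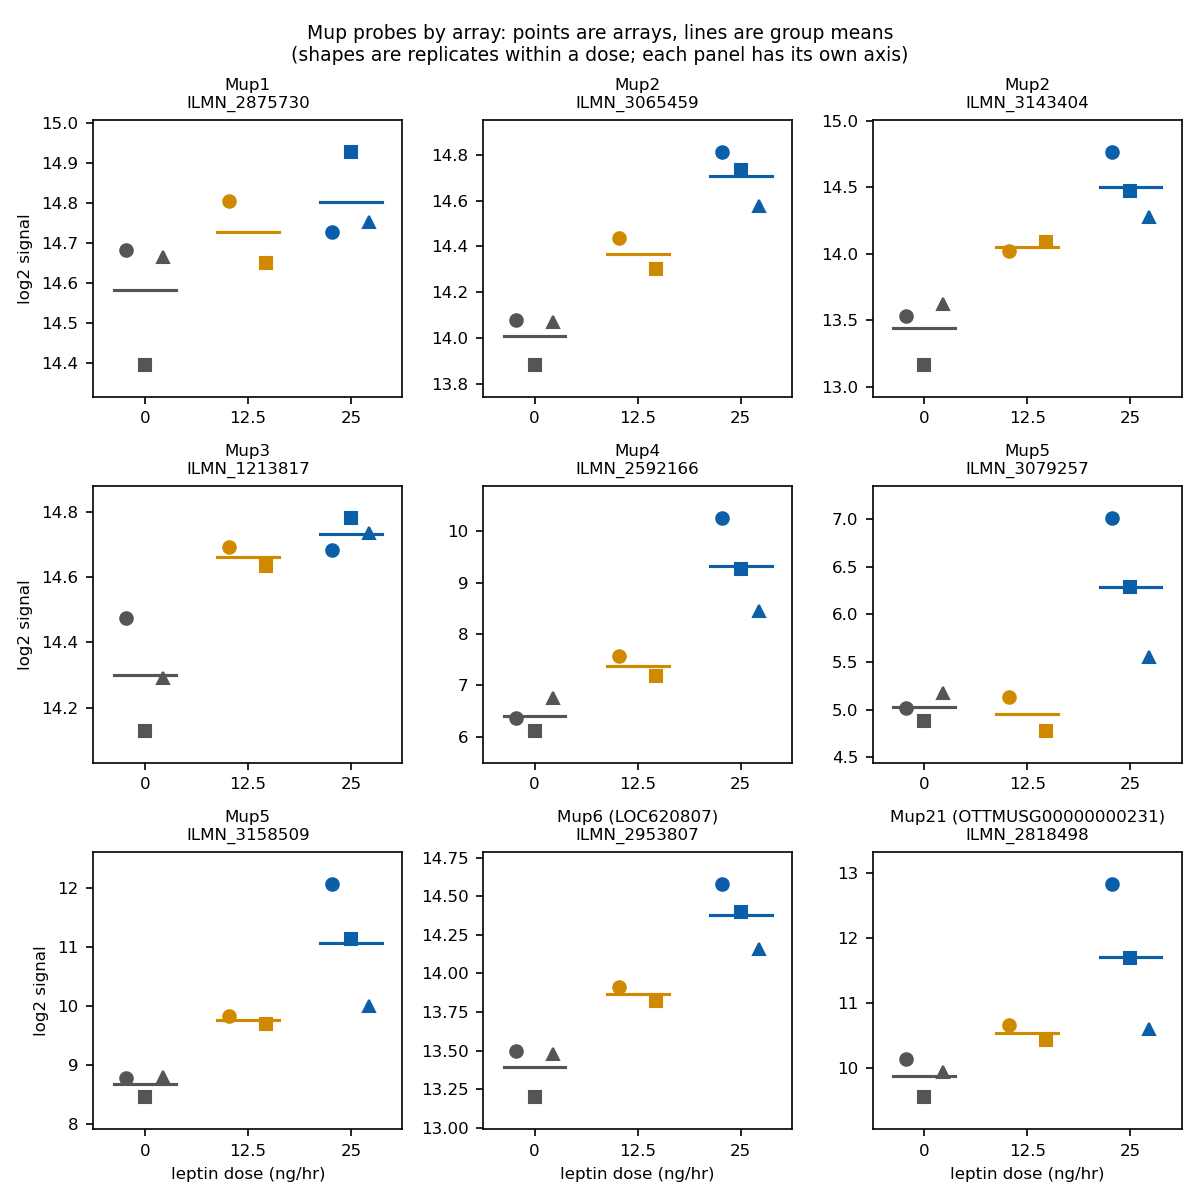
Log2 signal (vertical axis, background-corrected and quantile-normalized) of the 7 tested Mup probes and the Mup6 and Mup21 probes by leptin dose (horizontal axis, ng/hr). Points are single arrays, shapes tell replicates within a dose apart, lines are group means, and each panel has its own vertical scale. The Mup4 points at 25 ng/hr spread from 8.44 to 10.26, all above the controls at 6.11 to 6.76.

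Mup4 showed the largest difference of the 7. Its intensities before scaling were 134, 118 and 144 in control replicates 1 to 3, 242 and 210 at 12.5 ng/hr in replicates 4 and 5, and 1262, 609 and 353 at 25 ng/hr in replicates 6 to 8. No group overlapped with another, and replicate 6 stood well above its own group. In log2 signal the controls averaged 6.41 ± 0.32 (SD, n = 3), the 12.5 ng/hr arrays 7.37 ± 0.28 (SD, n = 2) and the 25 ng/hr arrays 9.32 ± 0.91 (SD, n = 3). The difference between 25 and 0 ng/hr was 2.91 (SE 0.38), or 7.51-fold, with an adjusted p of 0.0237 in limma's test, the 16th smallest p of all probes. Without background correction it was 2.28 and with the authors' scaled intensities 2.39, and it passed in both. Without replicate 6 it was 2.43 with an adjusted p of 0.0592, and over 17 alternatives the adjusted p ran from 0.00444 to 0.0875. The other Mup4 probe gave no such signal: its intensities were 52.5 to 65.3, above background on none of the 8 arrays, so the 2 probes disagree.

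Mup5 had 3 probes that also disagreed. The brightest, ILMN_3158509, read 506, 418 and 453 in the controls, 982 and 955 at 12.5 ng/hr, and 4344, 2119 and 961 at 25 ng/hr. Replicate 6 was again the highest, and replicate 8 lay level with the 12.5 ng/hr arrays. Its difference between 25 and 0 ng/hr was 2.39 on the log2 scale (SE 0.41), or 5.25-fold, with an adjusted p of 0.0384 in limma's test, which was 0.0889 without replicate 6. The dimmer probe ILMN_3079257 read 80.2, 75.6 and 77.6 in the controls, 82.3 and 72.3 at 12.5 ng/hr and 166, 114 and 83.4 at 25 ng/hr. The 25 ng/hr arrays again lay highest, and the other groups overlapped. It was above background on 7 of 8 arrays, and its log2 difference of 1.26 (SE 0.30) missed the threshold (adjusted p = 0.0942, limma). Without background correction that difference was 0.61. ILMN_1226884, the remaining one, read 40.1 to 49.4 and was above background on none of the 8 arrays.

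Mup2, of the central group, rose on both of its probes. ILMN_3143404 read 12462, 9851 and 11766 in the controls, 16770 and 18023 at 12.5 ng/hr, and 27578, 21687 and 18977 at 25 ng/hr. Every dose lay above the one before with no overlap. Its log2 difference between 25 and 0 ng/hr was 1.07 (SE 0.16), or 2.09-fold (adjusted p = 0.0280, limma). ILMN_3065459 read 18163, 15687 and 16149 in the controls, 22865 and 21576 at 12.5 ng/hr, and 28537, 26423 and 23354 at 25 ng/hr. It too had no overlap between doses, and its difference was 0.70 (SE 0.11), or 1.62-fold (adjusted p = 0.0302, limma). These are the steadiest of the probes that passed, with SDs within the 25 ng/hr group of 0.25 and 0.12.

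Mup3 and Mup1 were bright at every dose and did not pass. Mup3 read 22975, 19619 and 19536 in the controls, 27937 and 26822 at 12.5 ng/hr, and 26282, 26904 and 25865 at 25 ng/hr. Both leptin groups lay above the controls and level with each other, and the difference between 25 and 0 ng/hr was 0.43 on the log2 scale (SE 0.11, adjusted p = 0.104 in limma's test, 95% interval 0.19 to 0.68). It did pass under 3 other settings: no background correction (adjusted p = 0.0388), a trended prior (0.0414) and the intensities as scaled by the authors (0.0306). Mup1 read 27318, 22897 and 25066 in the controls, 29233 and 27218 at 12.5 ng/hr, and 26611, 29638 and 26050 at 25 ng/hr. Its raw intensities overlapped between all groups. After normalization the 25 ng/hr arrays lay just above the controls, with a log2 difference of 0.22 (SE 0.12, adjusted p = 0.380 in limma's test, 95% interval -0.04 to 0.48). The brightest probe of each array read 35691 to 44884. Among the 7 tested, the 4 with a control mean log2 signal above 13 differed by 0.22 to 1.07, and the 3 dimmer ones by 1.26 to 2.91. The part of brightness in the size of these differences was not tested, and neither was whether one Mup probe differed more than another.

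**Figure D2:**
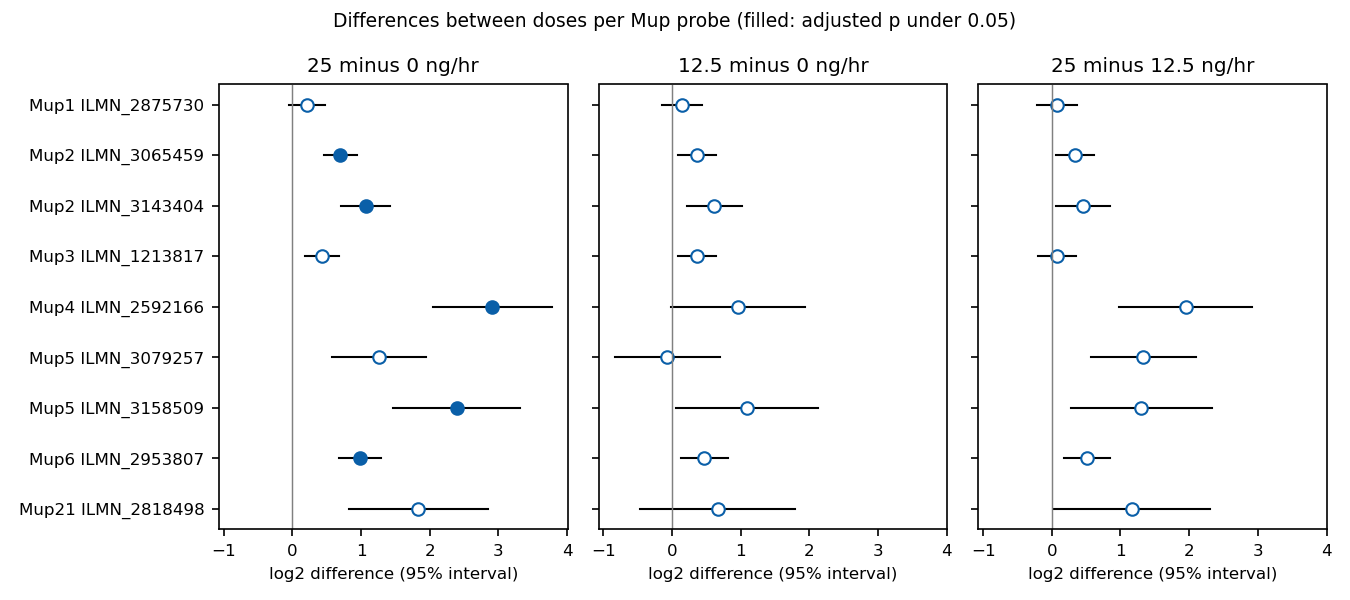
Log2 difference of each tested Mup probe and of the Mup6 and Mup21 probes (rows) in the 3 comparisons of doses, with 95% intervals as lines. Filled points passed an adjusted p of 0.05 in limma's test over all 13760 probes; 4 Mup probes and the Mup6 probe are filled at 25 minus 0 ng/hr and none elsewhere.

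The probes outside the rule went the same way. The Mup6 probe read 12176, 9946 and 10718 in the controls, 15457 and 15802 at 12.5 ng/hr, and 24388, 20155 and 17370 at 25 ng/hr. Doses did not overlap, and its log2 difference between 25 and 0 ng/hr was 0.98 (SE 0.13, adjusted p = 0.0240, limma). The Mup21 probe read 1214, 840 and 964 in the controls, 1687 and 1569 at 12.5 ng/hr, and 7396, 3154 and 1453 at 25 ng/hr. Its difference was 1.83 (SE 0.45), with an adjusted p of 0.0965 in limma's test. Replicate 8 read below both 12.5 ng/hr arrays, and in log2 signal it lay between them (10.60, beside 10.65 and 10.42).

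**Figure D3:**
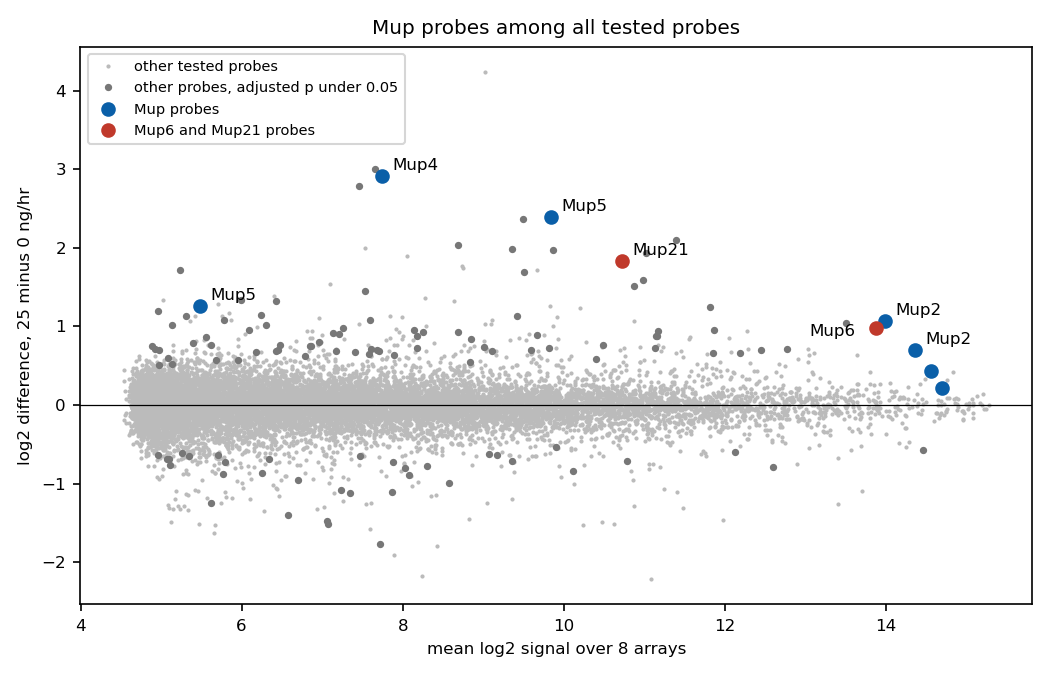
Log2 difference between 25 and 0 ng/hr (vertical axis) against mean log2 signal over the 8 arrays (horizontal axis) for all 13760 tested probes, with Mup probes in blue and the Mup6 and Mup21 probes in red. Dark grey points are other probes with an adjusted p under 0.05; Mup1 and Mup3 carry no label and lie at the bright end with differences of 0.22 and 0.43.

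The authors' deposited table gives ratios of group means of scaled, not background-corrected intensities. Its ratio of 25 over 0 ng/hr was 5.88 for the detected Mup4 probe, 5.67 and 1.65 for the detected Mup5 probes, and 2.13 and 1.67 for the Mup2 probes. In the authors' deposited table Mup3 had 1.36 and Mup1 1.17, and the undetected probes of Mup4 and Mup5 had 0.97 and 1.07. The Mup6 and Mup21 probes had 2.01 and 4.18 there.

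At 12.5 ng/hr no Mup probe passed in limma's test, and neither did any of the 13760 probes. At an unadjusted p under 0.05 there were 4 of 7 Mup probes, both Mup2 probes, Mup3 and ILMN_3158509 of Mup5, beside 11.2% of all probes. Both 12.5 ng/hr arrays lay above all controls for 5 of 7, beside 14.4% of all, 6 of 7 lay above 0 beside 49.5% of all, and the median log2 difference was 0.36 beside -0.00. Mup4 differed by 0.96 (SE 0.43, adjusted p = 0.449) and ILMN_3158509 of Mup5 by 1.09 (SE 0.46, adjusted p = 0.428). Mup2 differed by 0.61 and 0.36, Mup3 by 0.36 and Mup1 by 0.15. The dim Mup5 probe differed by -0.07 and was above background on 1 of the 2 arrays. The Mup6 and Mup21 probes differed by 0.47 and 0.67. All 3 comparisons share arrays pairwise, so these values are not independent of those at 25 ng/hr.

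Between the doses, 25 minus 12.5 ng/hr, 0 of 7 Mup probes passed in limma's test, beside 0.407% of all probes (56). At an unadjusted p under 0.05 there were 5 of 7, beside 12.8% of all, and the groups did not overlap for the same number, beside 14.9% on the higher side. All 7 lay above 0, as did 51.9% of all probes, and 0.116% of all probes passed higher. Mup4 differed by 1.95 (SE 0.43, adjusted p = 0.123), and its adjusted p was 0.0477 without 25 ng/hr replicate 8. The 2 detected Mup5 probes differed by 1.33 and 1.30, of which the dimmer, ILMN_3079257, also passed without replicate 8 (adjusted p = 0.0481). Mup2 differed by 0.45 and 0.34, and Mup3 and Mup1 by 0.07 each. The intervals of Mup3 and Mup1 ran from -0.21 to 0.35 and from -0.22 to 0.37 on the log2 scale.

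The 25 ng/hr arrays differed more among themselves for some Mup probes than for most probes. Within that group the SD was 0.91 for Mup4, 1.03 for ILMN_3158509 and 0.73 for ILMN_3079257 of Mup5, beside a median of 0.14 and a 95th percentile of 0.38 over all probes. The other 4 Mup probes lay under that percentile, as did all 7 in both other groups. Replicate 6 was the highest of its group for 5 of 7 Mup probes and for 32.5% of all probes, and replicate 8 the lowest for 5 of 7 and for 35.5%. Among the controls, replicate 2 was the lowest for 7 of 7 Mup probes and for 33.8% of all, and at 12.5 ng/hr replicate 4 was higher than replicate 5 for 6 of 7 and for 50.1%. The 7 probes share their arrays, so these counts describe arrays rather than independent genes.

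Across the 8 arrays the 7 probes correlated pairwise with r from 0.51 (Mup1 and the dim Mup5 probe) to 0.98. Likeness to the family was measured as Pearson's r with the mean log2 signal of the 7, over 8 arrays that share the dose groups. This mean follows the probes with the largest differences: Mup4 and ILMN_3158509 of Mup5 had r = 0.995 and 0.991 with it, and Mup3 and Mup1 r = 0.79 and 0.69, so Mup3 and Mup1 are less like it than the probes named next. Of 13751 other probes, 124 (0.902%) had r above 0.9. The most alike was OTTMUSG00000007485, with r = 0.998 and a log2 difference between 25 and 0 ng/hr of 2.36 (SE 0.35). This probe is assigned to chromosome 4, as the Mup cluster is, and its deposited name matched no current symbol. Whether it belongs to a Mup gene was not determined, so it cannot be counted as a gene outside the family. C8b, a chain of the complement pore, followed with r = 0.992 and a difference of 1.98. Next came the cytochrome P450 gene Cyp2c67 (r = 0.986, difference 1.13), Rapgef4, a cAMP-activated exchange factor (r = 0.985, 1.02), and the carboxylesterase gene Ces3b (r = 0.982, 1.93). Erc2 (r = 0.980, 0.45) and both probes of the complement gene C6 (r = 0.979 each, 2.04 and 2.00) completed the 8 nearest. The Erc2 probe was dim, reading 74.0 to 86.9, near background, and did not pass at 25 minus 0 ng/hr (adjusted p = 0.109, limma). Rapgef4 (0.0696) and the C6 probe with 2.00 (0.0508) did not pass there either. The 4 most opposed were Apmap, named for adipocyte plasma membranes (r = -0.990, difference -0.42), the ubiquitin ligase gene Trim2 (r = -0.980, -0.80), the antiproliferative gene Btg1 (r = -0.975, -0.65) and Uhrf1bp1l (r = -0.974, -0.40).

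**Figure D4:**
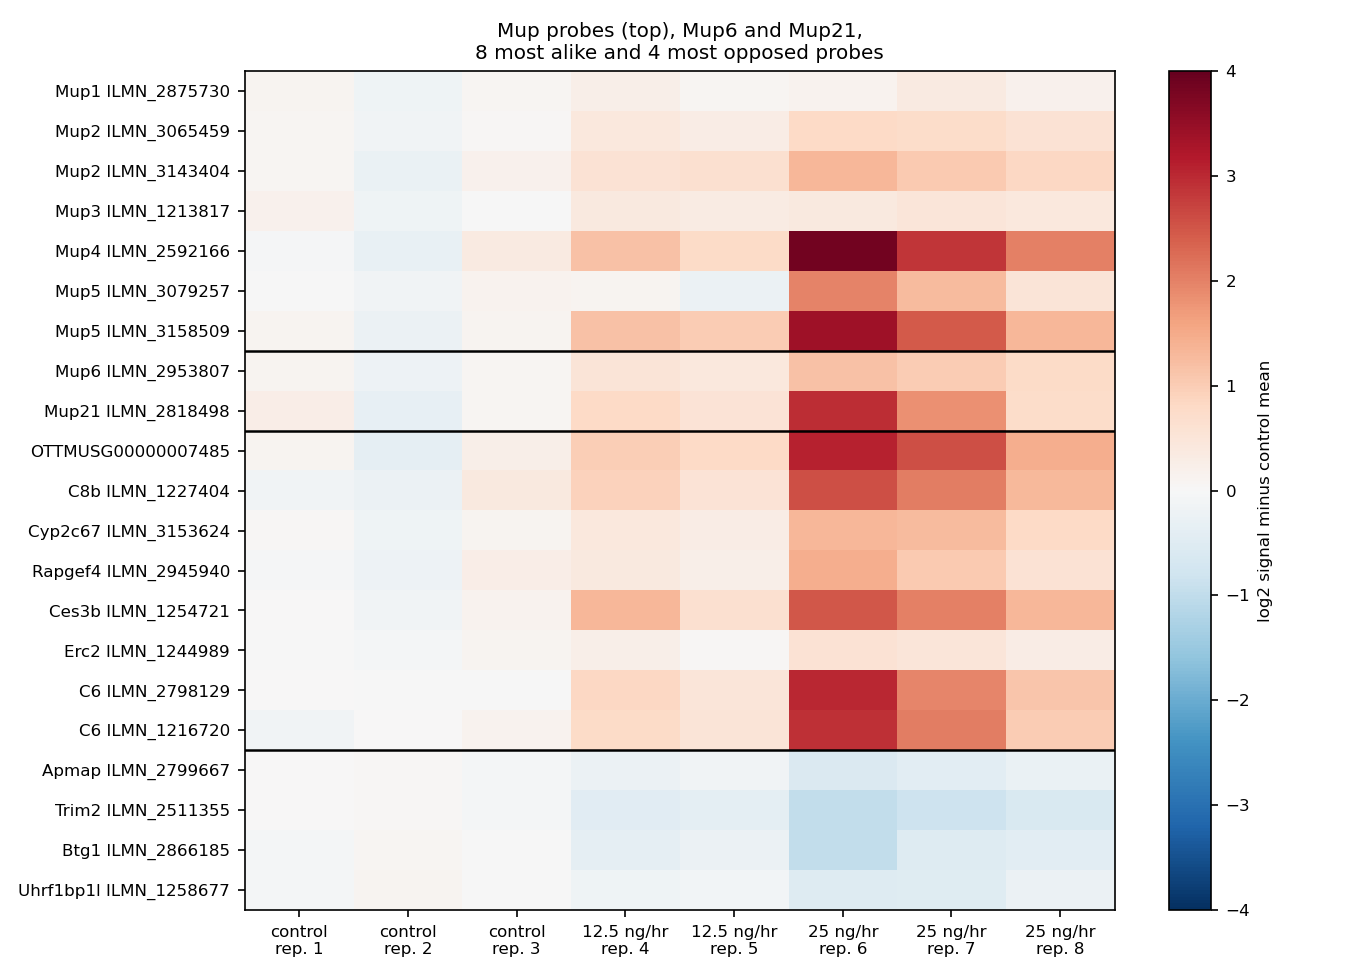
Log2 signal minus the control mean (colour scale, red higher and blue lower) of each probe (rows) on each of the 8 arrays (columns), for the Mup probes, the Mup6 and Mup21 probes, the 8 most alike and the 4 most opposed probes. Replicate 6 is the deepest red column of the 25 ng/hr group for Mup4, Mup5 and Mup21.

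Other genes of the male liver programme stood beside the Mup probes, each gene by its brightest tested probe. The background rates over these 10119 genes were 0.632% passing higher and 0.257% passing lower at 25 minus 0 ng/hr. Of 16 tested male-biased liver genes other than Mup, 15 lay above 0 and 7 passed, all higher, with a median log2 difference of 1.06 beside -0.00 over all genes. The 4 with the smallest p were Nudt7, a peroxisomal hydrolase gene (1.04, SE 0.13, adjusted p = 0.0237), Ces3b (1.93, SE 0.28, adjusted p = 0.0280), C8b (1.98, SE 0.30, adjusted p = 0.0286) and the glucuronosyltransferase gene Ugt2b1 (0.72, SE 0.11, adjusted p = 0.0302), all by limma. The male-biased list holds C6, C8b and Ces3b, whose probes are among the 8 nearest to the Mup mean above. It was chosen with earlier results of these data known, so its counts are not independent of that likeness. Of 11 tested female-biased liver genes, 1 lay above 0 and 0 passed, with a median of -0.76. The nearest to passing was Hao2, an oxidase gene above background on no 25 ng/hr array and at least 1.51-fold lower there, followed by Cyp4a14 (-0.68), the peroxisomal transporter gene Abcd2 (-0.76) and Cyp2b9 (-1.47).

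Growth hormone signalling genes and known regulators of Mup genes gave no calls at 25 minus 0 ng/hr. Of 19 tested, 8 lay above 0 and 0 passed, with a median of -0.06. Igfals, which encodes a carrier of circulating IGF, differed by 0.67 (adjusted p = 0.136 in limma's test), the signalling inhibitor gene Socs2, a target of growth hormone, by 1.01 (0.156) and Igf1 by 0.35 (0.198). Igfals, Socs2 and Igf1 were above every control on all 25 ng/hr arrays, without passing.

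The lists of lipocalins other than Mup and of secretory protein genes, which do not hold the complement genes named above, gave no calls. Of 8 tested lipocalin genes 0 passed, with a median of 0.08. Apom, which carries sphingosine phosphate in blood, came nearest at 0.77 (SE 0.15, adjusted p = 0.0549), followed by the retinol carrier gene Rbp4 (0.36), Lcn8, above background on no 25 ng/hr array and at least 1.11-fold lower there, and Lcn2 (-0.47). Of 17 tested secretory protein genes 0 passed, with a median of 0.06. Among them were the protease inhibitor genes Serpina1c (0.42) and Serpina1a (0.19), Apoa1 (0.32) and the haem carrier gene Hpx (0.14).

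**Figure D5:**
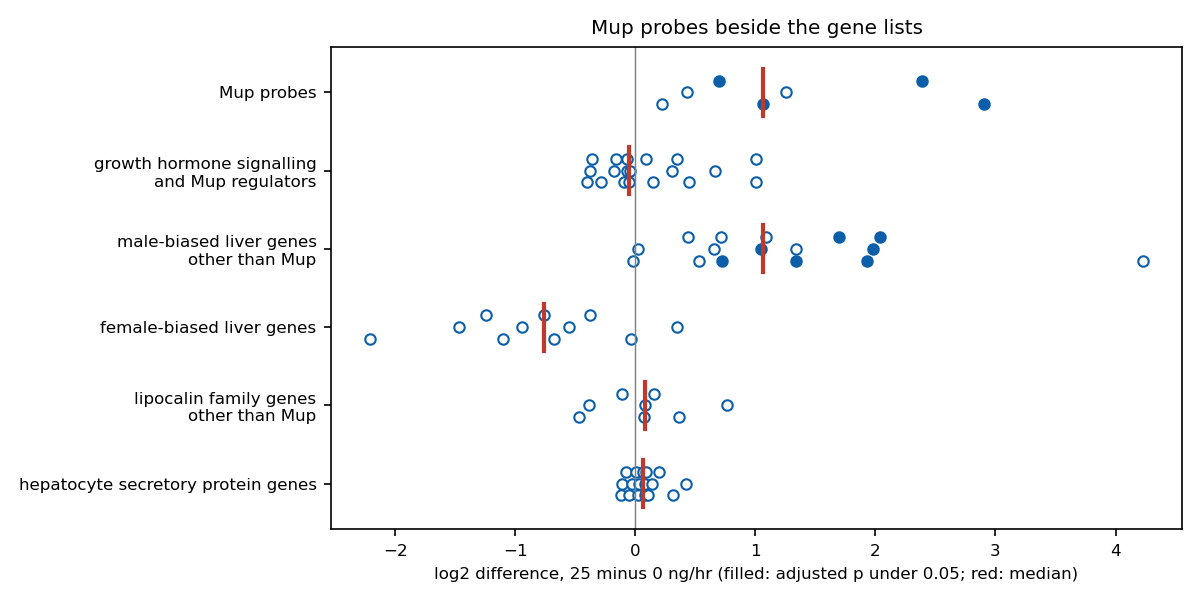
Log2 difference between 25 and 0 ng/hr (horizontal axis) of the 7 Mup probes and of each tested gene in the 5 gene lists (rows), with filled points for an adjusted p under 0.05 and a red line at each list's median. The Mup probes and the male-biased genes have medians of 1.07 and 1.06, and the female-biased genes of -0.76.

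Markers of other liver cells also differed between the groups. Of 10 tested macrophage and Kupffer cell markers, 10 lay above 0 at 25 ng/hr, as did 50.4% of all probes. Of these 4 passed (Adgre1, C1qa, Clec4f and Vsig4), all higher, beside 0.632% of all genes. The median was 0.57 beside -0.00 over all genes. At 12.5 ng/hr 9 of the 10 lay above 0 and 0 passed, with a median of 0.53. The summed intensity of these macrophage markers was 3278 to 4084 in the controls, 5537 to 5610 at 12.5 ng/hr and 4537 to 5429 at 25 ng/hr. Of 9 tested stellate cell and fibroblast markers 2 lay above 0 at 25 minus 0 ng/hr and 0 passed, with a median of -0.51. At 12.5 minus 0 ng/hr 7 of the 9 lay above 0 and 0 passed, with a median of 0.61. At 25 minus 12.5 ng/hr 0 of the 9 lay above 0 and 3 passed, all lower, with a median of -0.71. Over all 10119 genes 31 passed lower in that comparison. The sums of these stellate cell and fibroblast markers were 7334 to 13585 in the controls, 11738 to 12417 at 12.5 ng/hr and 6084 to 8093 at 25 ng/hr. Hepatocyte markers, of the cells that make major urinary proteins, had a median of -0.04 at 25 minus 0 ng/hr, with 0 of the 8 tested passing. Their sums were 165535 to 183883 in the controls, 177397 to 180617 at 12.5 ng/hr and 155611 to 163489 at 25 ng/hr. All these sums are of intensities and not of normalized log2 signals. Mean unscaled intensity over all probes ran from 465 to 522 in the controls, 505 to 532 at 12.5 ng/hr and 456 to 488 at 25 ng/hr. The part of array brightness in the sums was not tested, and neither was the part of these markers in the Mup differences. In bulk liver, fewer cells of a type and less RNA per cell cannot be told apart. Endothelial, adipocyte, exocrine pancreas and bile duct markers had 0 members passing at 25 minus 0 ng/hr, with medians of 0.04, -0.39, 0.08 and -0.25 over 8, 4, 3 and 2 tested.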

How the data were processed

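Liver RNA of 8 samples was measured on Illumina arrays; RNA was extracted with Trizol and labelled with biotin, per the labels' protocols. The genome build and the scanner's software are not given in sources used here. Deposited by the authors were an intensity on a linear scale with its detection p-value, for every probe on each array, and a second deposited table with each array multiplied by 1 factor (0.927 to 1.08) to a common mean of 493, with the authors' ratios of group means. The deposited series matrix held the same scaled intensities, with column medians of 68.4 to 74.2, linear, not centred and not ratios.

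From the unscaled intensities, log2 signals were computed with neqc of limma 3.58.1 in R 4.3.3, which corrects background by detection p-values (offset 16) and quantile-normalizes. The offset makes changes of dim probes appear smaller. Probes with a detection p under 0.05 on at least 2 arrays were fitted with lmFit and eBayes on 3 group means of all 8 arrays, so the 3 groups share 1 spread. P-values were Benjamini-Hochberg adjusted over all 13760 probes at a threshold of 0.05. For the lists, the brightest probe of a gene was used. Where no array of the dimmer group was above background, a fold is a lower bound, taken against the higher of the lowest detected signal and the probe's own. Symbols were updated with RefSeq names (GRCm38.p6), and 559 of 25697 probes matched none. Promoters were aligned with Biopython 1.88, and figures drawn with matplotlib 3.10.9 in Python 3.11.15.

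The named genes were every Mup probe, the probes that map to a Mup name outside the rule, up to 4 genes per list by smallest p at 25 minus 0 ng/hr, and the 8 most alike and 4 most opposed probes. Some results that the rule selects are left out. The family, the lists and these rules were chosen with earlier results of these data known. Alternatives covered scaling, background correction, the authors' values, detection filters, 1 probe per gene, the variance prior, array weights, fits of only the groups compared and leaving out each array.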

Additional observations from a re-analysis of the deposited data

How the results depend on the processing

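No paired analysis was possible because replicate numbers 1 to 8 are shared by no groups. The count of Mup probes that passed at 25 minus 0 ng/hr, 4 as reported, was 1 without a filter on dim probes, 3 to 5 under the other settings with all arrays of the compared groups, and 0 to 5 when arrays were left out 1 at a time. Counts of 5 include Mup3 or the dim Mup5 probe. Over all probes the 118 that passed at 25 minus 0 ng/hr became 266 when background was not corrected, 257 on the authors' intensities, 56 without a filter, 293 with a trended prior, 180 with array weights and 77 with only the groups compared, and 0 to 194 without single arrays. At 12.5 minus 0 ng/hr the count of 0 became 18 on the authors' intensities, 7 when background was not corrected and 3 with only the groups compared, and 0 to 2 without single arrays, with 0 Mup probes in every setting run. At 25 minus 12.5 ng/hr the 56 became 98 when background was not corrected, 134 on the authors' intensities, 21 without a filter and 104 with a trended prior, and 0 to 70 without single arrays, with 0 to 2 Mup probes. Median scaling moved the split at 25 minus 0 ng/hr from 83 higher and 35 lower to 49 and 43, and at 25 minus 12.5 ng/hr from 16 and 40 to 8 and 53, and it moved the median log2 difference of all probes from 0.00 to -0.06 and from 0.01 to -0.08. Directions reversed for the dim Mup5 probe at 12.5 minus 0 ng/hr (0.0029 without control replicate 3 and 0.10 without replicate 5, in a range from -0.25 to 0.10 over single arrays left out) and for Mup1 at 25 minus 12.5 ng/hr (-0.0048 without replicate 5, in a range up to 0.16). The cause of these changes was not tested, other than that fits without an array have fewer samples.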
